A study of Mus musculus with 2 samples.

Results

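The transcripts of p53 (Trp53), its inhibitors Mdm2 and Mdm4, and 7 genes that p53 is known to activate (Cdkn1a, Ccng1, Phlda3, Sesn2, Eda2r, Zmat3 and Trp53inp1) were followed in mouse macrophages with and without IL-4. These 10 genes were chosen by name and matched through their NCBI gene numbers, and all 10 were found among the 15623 genes listed in either library. Both libraries came from wild type C57BL/6 mice aged 6 to 8 weeks by the study's methods. Mice had received 4% thioglycollate in the peritoneum, an irritant that draws macrophages into the cavity, and cells were washed out 4 to 5 days afterwards. Cells that had adhered over 4 h were kept in 0.5% serum, and were then left nontreated (NT) or given mouse IL-4 for 6 h. IL-4 is the cytokine that drives alternative (M2) activation. The number of animals behind each library was not given in the sources used here, nor whether animals were pooled.

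p53 is a transcription factor that is activated by DNA damage and other stress, and it is controlled mainly through the stability of its protein rather than through its transcript. MDM2 marks p53 for destruction, MDM4 masks its activation domain, and Mdm2 is itself a p53 target, so that the pair forms a feedback loop. Active p53 halts the cell cycle, chiefly through the CDK inhibitor p21 encoded by Cdkn1a, and it also switches on genes of DNA repair, metabolism and cell death. Macrophages elicited into the peritoneum divide little once they adhere. Only RNA was measured here, so neither the amount nor the activity of the p53 protein is known.

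Each group was 1 library, so no spread between animals could be measured, and every test below compares these libraries rather than the conditions. The library totals were 11035641 expected counts for NT and 11250099 for IL-4, and a count of 0 allows up to 3 counts, which is 0.272 CPM (counts scaled to the library total) in NT and 0.267 CPM in IL-4. Intervals cover counting error only, because reads copied by PCR are not independent molecules. One label field named the tissue as bone marrow and another named peritoneal macrophages. All 8 macrophage markers checked were listed, with a summed level of 17095 CPM in NT and 17408 CPM in IL-4, mostly from Lyz2 and Cd68. Of the 8, the growth factor receptor gene Csf1r rose from 6236 to 11896 expected counts (log2 ratio 0.90) and the endotoxin co-receptor gene Cd14 fell from 1219 to 591 (log2 ratio -1.07). Of 22 markers of other cells, 17 were listed, with sums of 143 CPM and 117 CPM, mostly from the collagen genes Col1a1 and Col1a2. Of these 17, 14 had a ratio below 0, beside 8523 of all 15593 genes tested. Among the 14, Cd3e, Elane and Mcpt4 had at most 4 counts in either library. Of the 17, 2 were called lower and 0 higher, beside 6.28% and 4.07% of all genes. Those called were the eosinophil marker Siglecf, with 53 and 27 counts (log2 ratio -0.99), and the mesothelial marker Msln, with 12 and 2 counts (log2 ratio -2.35). The neutrophil genes Ly6g, S100a9 and Mpo, the mast cell gene Fcer1a and the eosinophil gene Epx were not listed in either library. Other markers of these cells were listed. The neutrophil gene S100a8 had 35 counts in NT and 21 in IL-4, and the mast cell gene Cpa3 had 19 and 15. Elane, Mcpt4 and Prg2 had at most 1 count in either library. The part of other cells in the results was not tested, and in bulk RNA fewer cells of a type and less RNA per cell cannot be told apart.

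Cdkn1a was the only one of the 10 genes that was called, and it rose 1.90-fold with IL-4. Mdm2, Mdm4, Zmat3, Trp53inp1, Ccng1 and Sesn2 also passed the binomial test but fell short of the ratio required for a call. The p53 transcript itself differed by less than its counting error, Mdm2 and Mdm4 had lower values after IL-4, and the other targets pointed in both directions. A call required a log2 ratio (IL-4 over NT) of 0.75 or more in either direction, and that the exact binomial test between the libraries passed, at thresholds that the study used. By that rule 1 of the 10 genes was called higher and 0 were called lower, beside 4.07% of all 15593 genes tested called higher and 6.28% called lower, 10.4% in either direction. One called gene in 10 is the share found among all genes. The 95% interval of the ratio lay above 0 for 3 of the 10 (Cdkn1a, Ccng1 and Sesn2) and below 0 for 4 (Mdm2, Mdm4, Zmat3 and Trp53inp1). Among all genes 17.9% lay above and 20.4% below. Their median log2 ratio was -0.08, beside -0.03 for all genes.

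**Figure D1:**
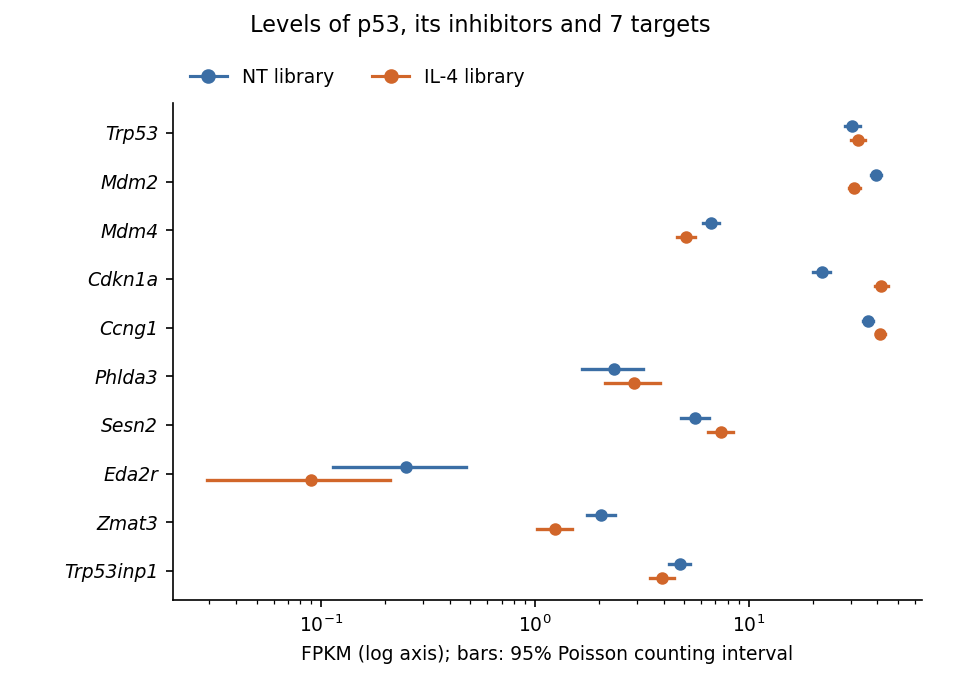
FPKM (reads scaled for transcript length and depth, log axis) of the 10 genes in the NT library (blue) and the IL-4 library (orange), 1 point per library, with 95% Poisson counting intervals as bars. Cdkn1a moved from 22.0 to 41.8 FPKM, while Trp53 was at 30.6 and 32.6 FPKM with overlapping bars.

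Trp53 (NCBI gene 22059, chromosome 11, 69580348 to 69591873 in GRCm38) had 602 expected counts in NT and 659 in IL-4. Per length these were 30.6 and 32.6 FPKM, at percentile 85.0 of listed genes in NT and 85.1 in IL-4. The log2 ratio was 0.10 with an interval of -0.06 to 0.26, so no difference in the p53 transcript was detectable at this depth. The family members Trp63 and Trp73 were not listed in either library.

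Both inhibitors were lower in the IL-4 library, although neither was called. Mdm2 (gene 17246, chromosome 10, 117688875 to 117710758), the ubiquitin ligase that turns p53 over, had 1368 expected counts in NT and 1100 in IL-4, or 39.6 and 31.3 FPKM. Its log2 ratio was -0.34, with an interval of -0.46 to -0.23. Mdm4 (gene 17248, chromosome 1, 132986105 to 133030587), which binds p53 without turning it over by itself, had 540 and 419 counts, or 6.69 and 5.09 FPKM. Its log2 ratio was -0.39 with an interval of -0.58 to -0.21. In FPKM Mdm2 stood 5.92 times above Mdm4 in NT and 6.14 times above it in IL-4. The difference between their log2 ratios was 0.05 with an interval of -0.17 to 0.27, so the inhibitors could not be told apart by their ratios, although Mdm2 is a p53 target.

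Mdm4 and Mdm2 separated once transcript length was considered. Across the 8461 genes with at least 200 reads, the shortest 10% had a median log2 ratio of 0.18 and the longest 10% a median of -0.44, so longer transcripts were on the whole lower in the IL-4 library. Mdm4 spans 7218 bases of transcript, and after the median of the 200 genes nearest in length was subtracted its ratio was 0.07. Mdm2 was at -0.35 on that scale, with hardly any difference from the value before. What lies behind this trend was not tested.

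**Figure D2:**
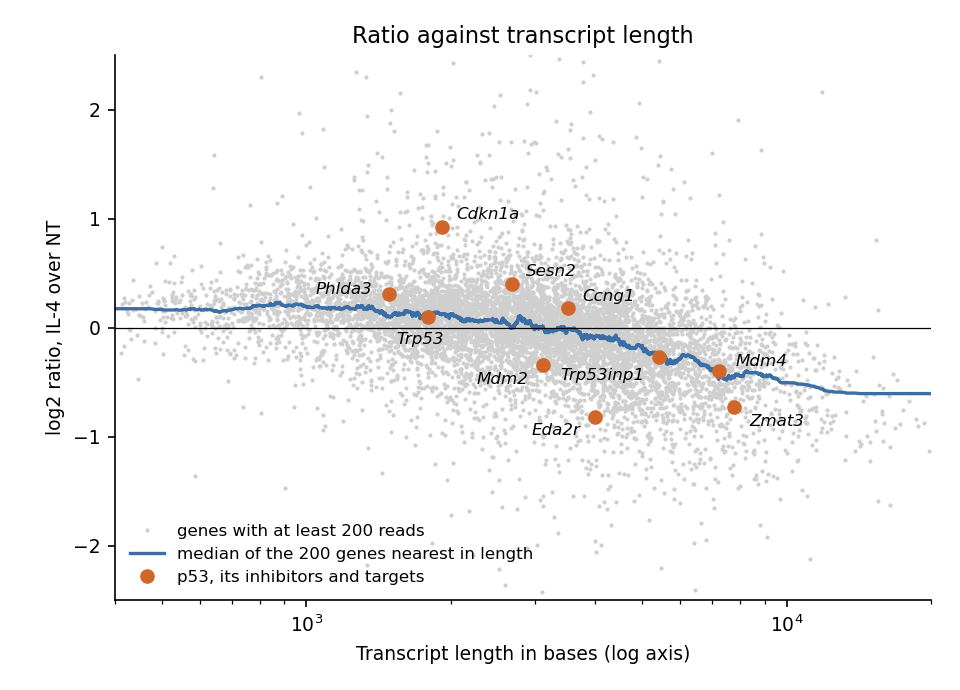
Log2 ratio of IL-4 over NT against transcript length in bases (log axis) for genes with at least 200 reads (grey; 52 of 8461 lie outside the axes), with the running median of the 200 genes nearest in length (blue line) and the 10 genes of the p53 list (orange). Mdm4 and Trp53inp1 sit on the line, Zmat3 and Mdm2 below it, and Cdkn1a, Ccng1 and Sesn2 above it.

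Cdkn1a (gene 12575, chromosome 17, 29090979 to 29100722) encodes p21, which binds and blocks cyclin-dependent kinases. It had 465 expected counts in NT and 900 in IL-4, or 22.0 and 41.8 FPKM. The log2 ratio was 0.92, with an interval of 0.76 to 1.09. Cdkn1a thus went from the fourth highest FPKM of the 10 genes to the highest. With the length trend subtracted the ratio was 0.80, with an interval of 0.64 to 0.97, and the gene was still called. The call was lost when a spread between animals was assumed, at a biological coefficient of variation of 0.2 or 0.4, and when a log2 ratio of 1 was required.

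Ccng1 (gene 12450, chromosome 11, 40748552 to 40755309), cyclin G1, is another early target whose protein recruits a phosphatase to MDM2. It was not called, with 1412 expected counts in NT and 1637 in IL-4, or 36.3 and 41.2 FPKM. Its log2 ratio of 0.19 had an interval of 0.08 to 0.29, above 0 but far under the threshold. The log2 ratio of Cdkn1a exceeded that of Ccng1 by 0.74, with an interval of 0.55 to 0.93. Such differences between the ratios of paired genes do not depend on how the libraries are scaled, but the length trend is not removed from them. With that trend subtracted, the ratio of Cdkn1a was 0.80 and that of Ccng1 0.20.

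The sequences just before the transcription starts are shown for the genes in which a p53 half-site was found, because p53 acts on its targets through such sites. A half-site is the 10-base consensus of the p53 response element, which carries the core CATG or a near relative of it, and a full response element has a pair of them with a spacer of 0 to 13 bases. RefSeq windows on GRCm38 were available for 8 of the 10 genes, in 10 windows of 250 bases, since Cdkn1a and Mdm4 have more than 1 start. Capitals mark exact half-sites and any run of 20 bases that makes an adjoining pair with at most 1 mismatch. The whole window is given for Cdkn1a and Ccng1, and 60 bases around the half-site for Mdm2 and Trp53.
Cdkn1a, upstream start, chr17:29090729-29090978, plus strand: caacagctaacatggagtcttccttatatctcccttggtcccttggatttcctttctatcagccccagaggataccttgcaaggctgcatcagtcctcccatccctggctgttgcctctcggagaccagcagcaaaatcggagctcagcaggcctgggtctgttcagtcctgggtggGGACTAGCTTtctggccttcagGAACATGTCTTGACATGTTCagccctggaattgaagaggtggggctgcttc
Ccng1, chr11:40755287-40755536, minus strand: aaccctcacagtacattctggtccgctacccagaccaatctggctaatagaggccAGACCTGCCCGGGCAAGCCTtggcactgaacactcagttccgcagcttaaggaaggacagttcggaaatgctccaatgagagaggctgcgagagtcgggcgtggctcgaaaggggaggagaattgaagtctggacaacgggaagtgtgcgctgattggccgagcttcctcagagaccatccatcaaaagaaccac
Mdm2, chr10:117710910-117710969, minus strand: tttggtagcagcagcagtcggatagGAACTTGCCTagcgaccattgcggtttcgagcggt
Trp53, chr11:69580259-69580318, plus strand: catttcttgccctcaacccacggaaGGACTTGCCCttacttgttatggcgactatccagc

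An exact half-site was present in 4 of the 10 windows (Cdkn1a, Ccng1, Mdm2 and Trp53), beside 2341 of all 32851 windows, or 7.13%. In the window of the upstream Cdkn1a start, exact half-sites began 73 and 51 bases before the start, with a spacer of 12 bases. Only 21 windows, or 0.0639%, held such a pair of exact half-sites, and among the 10 windows it was found in Cdkn1a alone. Allowing 1 mismatch and no spacer gave 25 windows, or 0.0761%. These included the Cdkn1a run from 51 to 32 bases and a Ccng1 run from 195 to 176 bases before the start. The half-site of Mdm2 began 186 bases and that of Trp53 75 bases before the start. The window of the second Cdkn1a start, chr17:29093519-29093768, held none of the motifs searched.

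The motifs TTCNNNNGAA and TTCNNNGAA, to which STAT6 and other STAT factors of cytokine signalling bind, were also searched on both strands. They were in 5.85% and 7.02% of all windows and in 0 of the 10. The motif TGATGNAA, bound by ATF4 and its partners, was in 3.45% of all windows and again in 0 of the 10. A match describes the letters only and is not a measured binding site, and a missing match says only that these letters are not in the window.

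The genes that act on growth and survival signalling were expressed at low to moderate levels and none was called. Phlda3 (gene 27280, chromosome 1, 135766085 to 135769134), which competes with AKT for membrane lipids, had 38 expected counts in NT and 48 in IL-4, or 2.34 and 2.90 FPKM. Its log2 ratio was 0.31, with an interval of -0.34 to 0.96 that spans 0. Eda2r (gene 245527, chromosome X, 97333837 to 97377234), a receptor for an ectodysplasin isoform, had 9 and 5 counts, or 0.25 and 0.09 FPKM. Its transcript length was given as 3210 bases in NT and 4753 in IL-4. The drop in FPKM is therefore larger than that in counts. The interval of the Eda2r log2 ratio, -2.80 to 0.86, allows a difference in either direction. Its ligand gene Eda was listed only in IL-4, with 1 count, and Eda2r is the least expressed of the 10 genes in both libraries.

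Sesn2 (gene 230784, chromosome 4, 132492804 to 132510456) encodes a sestrin that restrains the growth kinase mTORC1 when amino acids are scarce. It had 167 expected counts in NT and 225 in IL-4, or 5.63 and 7.43 FPKM. The log2 ratio was 0.40, both before and after subtraction of the length trend, with an interval of 0.11 to 0.70. Cdkn1a exceeded Sesn2 by 0.52 in log2 ratio, with an interval of 0.18 to 0.86.

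Zmat3 and Trp53inp1 both had lower values in IL-4 and were not called. Zmat3 (gene 22401, chromosome 3, 32334792 to 32365665), an RNA-binding regulator of splicing, had 179 expected counts in NT and 110 in IL-4, or 2.05 and 1.24 FPKM. Its log2 ratio of -0.73, with an interval of -1.09 to -0.38, stood just short of the threshold. Zmat3 has a transcript of 7784 bases, and with the length trend subtracted the ratio was -0.27, with an interval of -0.63 to 0.08. Trp53inp1 (gene 60599, chromosome 4, 11156441 to 11174379), which promotes autophagy and p53 phosphorylation, had 287 and 243 counts, or 4.76 and 3.93 FPKM. Its log2 ratio was -0.27 (interval -0.52 to -0.02), and -0.03 with the length trend subtracted.

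**Figure D3:**
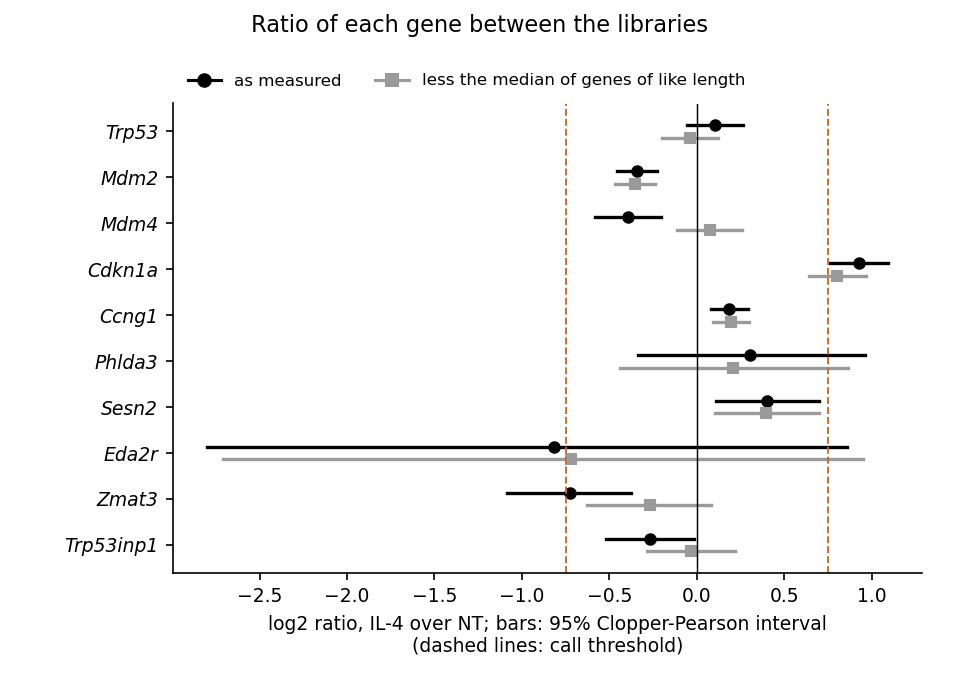
Log2 ratio of IL-4 over NT for each of the 10 genes as measured (black circles) and less the median of genes of like length (grey squares), with 95% Clopper-Pearson intervals as bars and the call threshold of 0.75 as dashed lines. After the subtraction the interval stayed above 0 for Cdkn1a, Ccng1 and Sesn2, and below 0 for Mdm2 alone.

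Length therefore bears on how the 10 genes read as a group. The 5 genes with a ratio above 0 had a median transcript length of 1914 bases, and the 5 below 0 a median of 5417 bases. With the trend subtracted, the intervals of 3 genes lay above 0, that of 1 gene lay below it, and 6 spanned it. The median ratio of the 10 was then 0.02, and the Trp53 ratio was -0.04.

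Set side by side in FPKM, the 10 genes kept much of their order between the libraries. In NT the order was Mdm2, Ccng1, Trp53, Cdkn1a, Mdm4, Sesn2, Trp53inp1, Phlda3, Zmat3 and Eda2r. Neighbours whose counting intervals overlapped were Mdm2 and Ccng1, Mdm4 and Sesn2, Sesn2 and Trp53inp1, and Phlda3 and Zmat3. In IL-4 the order was Cdkn1a, Ccng1, Trp53, Mdm2, Sesn2, Mdm4, Trp53inp1, Phlda3, Zmat3 and Eda2r. There the overlaps were Cdkn1a with Ccng1, Trp53 with Mdm2, and Trp53inp1 with Phlda3. The FPKM of Cdkn1a was 0.556 times that of Mdm2 in NT and 1.34 times it in IL-4. The log2 ratios of this target and this inhibitor differed by 1.27, with an interval of 1.07 to 1.47. Against Trp53 the log2 ratio of Cdkn1a was higher by 0.82 (interval 0.59 to 1.05). Against Phlda3 the difference of 0.62 had an interval of -0.06 to 1.28, so those genes were not separated.

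Cdkn1a and the related CDK inhibitor Cdkn1c moved in opposite directions. Cdkn1c, which encodes p57 and is an imprinted gene, fell from 1055 to 549 expected counts. In FPKM the drop was from 49.9 to 25.5, and the interval of the log2 ratio of -0.97 was -1.12 to -0.82. The FPKM of Cdkn1a was 0.442 times that of Cdkn1c in NT and 1.64 times it in IL-4, and the log2 ratios differed by 1.89 (interval 1.67 to 2.12). Cdkn1b, which encodes p27 of the same family, had 364 and 283 counts and was not called, with a log2 ratio of -0.39.

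Inhibitors of the INK4 group, which block CDK4 and CDK6, were at low to moderate levels. The highest was Cdkn2d, with 7.42 FPKM in NT and 7.63 in IL-4. Cdkn2a was called higher on 6 counts in NT and 18 in IL-4 (log2 ratio 1.48, interval 0.16 to 3.18). It falls under the count of 20 set for naming called genes and was named for its place in this family, and its counts do not separate Ink4a from Arf, the product that inhibits MDM2. Cdkn2b had 6 and 8 counts, Cdkn2c 51 and 69, and Cdkn2d 103 and 108, and none of them was called.

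**Figure D4:**
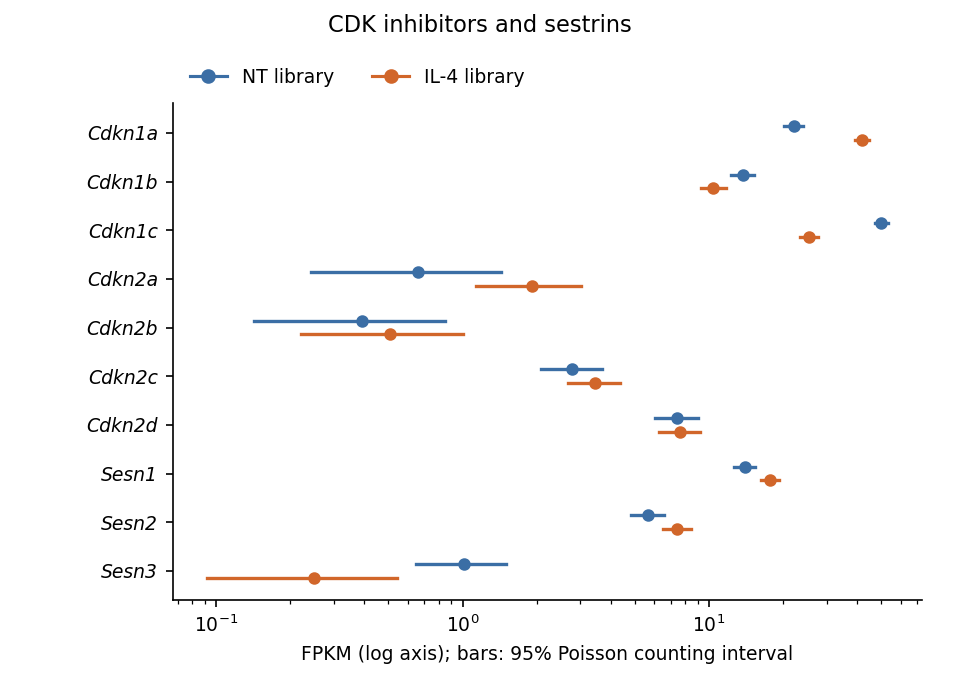
FPKM (log axis) of the CDK inhibitor and sestrin genes in the NT library (blue) and the IL-4 library (orange), 1 point per library, with 95% Poisson counting intervals as bars. Cdkn1a and Cdkn1c changed places, from 22.0 and 49.9 FPKM in NT to 41.8 and 25.5 FPKM in IL-4.

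The sestrins differed among themselves. Sesn1, also a p53 target, had 423 expected counts in NT and 551 in IL-4, and its log2 ratio of 0.35 (interval 0.17 to 0.54) was not called. The ratios of Sesn2 and Sesn1 differed by 0.05, with an interval of -0.30 to 0.40. Sesn3, which is known as a target of FOXO factors, fell from 24 to 6 counts, with a log2 ratio of -1.94 and an interval of -3.61 to -0.70. Sesn2 differed from Sesn3 by 2.42 (interval 1.06 to 4.04).

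Of the 21 relatives of the 10 genes, 16 were listed, of which 1 was called higher (Cdkn2a), 2 lower (Cdkn1c and Sesn3) and 13 not called. Among all genes 4.07% were called higher and 6.28% lower. The median log2 ratio of the relatives was 0.11, beside -0.03 for all genes. It was 0.04 with Eda left out, whose 0 counts in NT and 1 in IL-4 lie within the bound of 3 counts. Ccng2 had 290 and 225 counts and a log2 ratio of -0.39, and its ratio was below that of Ccng1 by 0.58 (interval 0.30 to 0.86). Trp53inp2 had 1093 and 774 counts and a ratio of -0.53, and its difference from Trp53inp1 of 0.26 had an interval of -0.03 to 0.54. Phlda1 had 31 and 43 counts. The zinc finger relatives Zmat1, Zmat2 and Zmat5 had ratios of -0.06, 0.18 and 0.30. Edaradd, an adaptor of ectodysplasin receptors, had 22 and 13 counts. Phlda2, Zmat4 and Edar were not listed, as were Trp63 and Trp73.

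A list of 46 further p53 targets was examined next, of which 45 were listed. Of these 1 was called higher, 1 lower and 43 not called, beside 10.4% of all genes called in either direction. Their median log2 ratio was -0.12, beside -0.03 for all genes. Plk3, a stress-responsive polo-like kinase, rose from 57 to 152 expected counts, with 2.07 and 5.42 FPKM (log2 ratio 1.38, interval 0.94 to 1.85). Sfn, which encodes the 14-3-3 sigma protein of G2 arrest, fell from 115 to 65 counts, with 6.48 and 3.59 FPKM (log2 ratio -0.85, interval -1.31 to -0.40). Among the arrest genes Cdkn1a and Plk3 thus rose while Sfn fell, and Gadd45a, with 380 and 244 counts, had a ratio of -0.67 and was not called. The Sfn call was lost at an assumed coefficient of variation of 0.2, and the Plk3 call at 0.4.

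Of the 11 cell death targets 0 were called, beside 10.4% among all genes, a share near which 0 of 11 lies. The death receptor gene Fas came nearest, with 101 expected counts in NT and 167 in IL-4 and a log2 ratio of 0.69 (interval 0.33 to 1.07). The pore-forming Bax, at 136.5 and 144.0 FPKM, had a ratio of 0.08 with an interval of -0.03 to 0.19. The exonuclease gene Aen had a ratio of 0.44. In the remaining groups 0 of 6 DNA repair genes, 0 of 11 metabolic genes and 0 of 3 autophagy genes were called. The repair gene Ddb2 was at 0.34 and the autophagy kinase gene Ulk1 at -0.68. These uncalled genes were named after their values were seen.

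**Figure D5:**
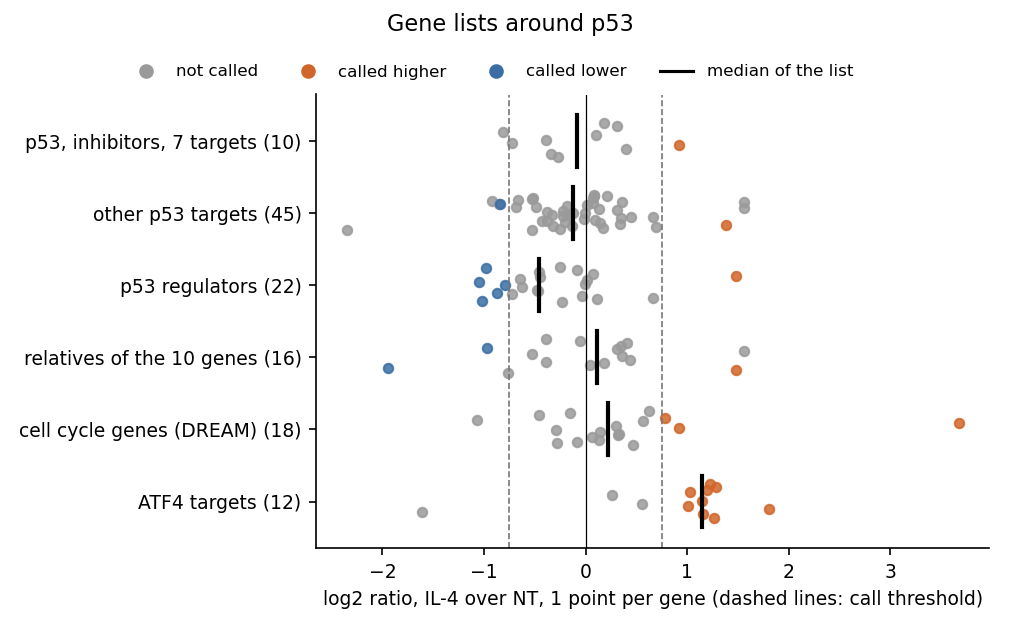
Log2 ratio of IL-4 over NT for every listed gene of 6 lists, 1 point per gene, with the number of genes in brackets, genes called higher in orange, called lower in blue and the rest in grey. Black bars are the list medians (-0.08 for the 10 genes, -0.12 for other p53 targets, -0.45 for p53 regulators and 1.15 for ATF4 targets). Dashed lines mark the call threshold, and points of genes with few counts are uncertain.

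Of 22 genes that act on p53 itself, 1 was called higher (Cdkn2a), 5 lower and 16 not called, beside 4.07% of all genes called higher and 6.28% lower. The median log2 ratio was -0.45, and -0.04 with the length trend subtracted, beside -0.03 and -0.04 for all genes. Hipk2, a kinase that phosphorylates p53, fell from 998 to 500 expected counts, with 21.1 and 10.5 FPKM (log2 ratio -1.02, interval -1.18 to -0.87). Ppp1r13b, which encodes ASPP1, a partner that steers p53 towards cell death genes, fell from 114 to 56 counts (log2 ratio -1.05, interval -1.54 to -0.58). Ppp1r13l, which encodes the opposing family member iASPP, fell from 148 to 76 counts (log2 ratio -0.98, interval -1.41 to -0.58). The genes for an activating and an inhibiting ASPP protein thus fell together. Of the other binding partners in the list, Trp53bp2 had a log2 ratio of -0.72 (interval -1.01 to -0.45) and Trp53bp1 one of -0.46, and neither was called.

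The remaining called regulators were Crebbp, an acetyltransferase gene that fell from 561 to 312 expected counts, and Trim24, a ubiquitin ligase gene for p53 that fell from 175 to 103. Their log2 ratios were -0.87 and -0.79. Both calls were lost with the length trend subtracted, at -0.40 and -0.54. The transcripts of this list are long, with a median of 4366 bases, beside 2707 bases for all genes. With the length trend subtracted, Hipk2, Ppp1r13b and Ppp1r13l were still called lower and Cdkn2a higher. The Cdkn2a ratio was then 1.27, with an interval of -0.04 to 2.97 that spans 0. At the assumed coefficient of variation of 0.2 Hipk2 was the 1 regulator still called. The damage kinase genes Atm and Chek2 were not called, with ratios of -0.25 and -0.01. With the length trend subtracted Atm was at 0.32 (interval 0.07 to 0.57) and Chek2 at -0.07.

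Genes that p21 is known to repress through the DREAM complex were examined as well. Of 18 cell cycle genes of this kind 3 were called higher, 0 lower and 15 not called, beside 4.07% and 6.28% of all genes, so that 0 of 18 lower is near the background. The median log2 ratio was 0.22, beside -0.03 for all genes. The replication helicase gene Mcm2 rose from 177 to 310 expected counts (log2 ratio 0.78, interval 0.51 to 1.06), and the mitotic cyclin gene Ccnb1 from 32 to 62 (log2 ratio 0.92, interval 0.29 to 1.59). Cdc25c, under the count of 20 set for naming, was listed in IL-4 only, with 6 counts. Mki67, a marker of dividing cells, had 183 and 168 counts, or 1.62 and 1.46 FPKM, and was not called. Its log2 ratio was -0.15 as measured, and 0.35 (interval 0.04 to 0.66) with the length trend subtracted. All 3 calls were lost at an assumed coefficient of variation of 0.2.

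A list of ATF4 targets was examined because Sesn2 is also known to respond to ATF4, the transcription factor of the amino acid and unfolded protein responses. Of 12 such genes 9 were called higher, 0 lower and 3 not called, beside 4.07% and 6.28% of all genes. The median log2 ratio was 1.15, beside -0.03 for all genes. Phgdh, the first enzyme of serine synthesis, rose from 426 to 1517 expected counts (log2 ratio 1.80, interval 1.65 to 1.96). Asns, asparagine synthetase, rose from 270 to 646, Ddit3, which encodes CHOP, from 436 to 984, and Atf3, a stress-induced factor, from 4981 to 10192. Nupr1, Psat1, Trib3, Chac1 and Atf5 were called with ratios of 1.03 to 1.28. The 3 not called were the cystine transporter gene Slc7a11 at 0.56, the phosphatase subunit gene Ppp1r15a at 0.26 and Vldlr, with 4 and 1 counts. With the length trend subtracted Slc7a11 was at 0.99 (interval 0.94 to 1.04) and Ppp1r15a at 0.20, and 10 of the 12 genes were called. The Sesn2 ratio of 0.40 lay between those of Ppp1r15a and Slc7a11. It was below called members of the list, by 0.74 against Ddit3 (interval 0.40 to 1.08 below) and by 0.83 against Asns (interval 0.46 to 1.19 below). All 9 calls were kept at an assumed coefficient of variation of 0.2, and 0 were kept at 0.4.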

How the data were processed

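RNA of 2 samples, NT and IL-4, was sequenced on an Illumina HiSeq. Sample titles gave the groups. Reads were mapped by the authors with Bowtie to GRCm38 (mm10), and genes were quantified in RSEM (versions not given in the sources used here). The deposited expected counts are RSEM estimates of reads per gene, not scaled for depth, and were rounded for tests. The deposited FPKM values were scaled by the authors for length and assigned fragments. Per the file headers, a further column gives transcript length.

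Log2 ratios were taken on CPM with 0.5 counts added. An exact binomial test (two-sided, conditional on the gene's total) compared the libraries gene by gene, with Benjamini-Hochberg (BH) adjustment over 15593 genes (30 others rounded to 0), and calls needed a log2 ratio of 0.75 or more in either direction, p of at most 0.05 and BH of at most 0.5. Intervals of ratios are Clopper-Pearson at 95%, and those of levels Poisson. The code was tested on simulated data. The test differs from edgeR's quasi-likelihood fit, which needs replicates. An exact test in edgeR 4.0.16 with an assumed biological coefficient of variation, DESeq2 1.42.0 size factors, TMM scaling and others were run as alternatives. Gene numbers were matched to symbols for 15587 genes (36 had none). Promoter windows came from RefSeq on GRCm38, and Zmat3 and Trp53inp1 were not analysed there.

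The 10 genes and the other lists were chosen with earlier results of these data known, and the pairs of genes compared were chosen after their values were seen. Named were all 10 genes, called genes of other lists with at least 20 expected counts in 1 library, and listed relatives, while the few other genes named were chosen after their values were seen. Whether counting used strand is not given in the sources used here, so overlapping and antisense reads cannot be told apart. Reads shared with similar genes were divided by RSEM, as in the fractional counts of Mdm2, Ccng1 and Zmat3.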

Additional observations from a re-analysis of the deposited data

How the results depend on the processing

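The 11 alternatives kept the direction and call of 103 of 109 ratios of the 10 genes and left 87 of 110 list counts and medians within their limits. Alternatives that changed only the test, the thresholds or the read filter reused the same ratios, so directions could not change there. Cdkn1a was called under 8 of 11, with log2 ratios of 0.80 to 0.96. With the length trend subtracted, Trp53 was at -0.041 and Mdm4 at 0.073, opposite in sign to the ratios as measured, and 2 other p53 targets were called lower (Gadd45a joined Sfn). With 1 added to FPKM, 0 other targets were called lower, 2 regulators were called and 0 DREAM genes. Where a log2 ratio of 1 or more and BH of at most 0.05 were needed, 0 of the 10 genes were called higher, 0 other targets lower, 2 regulators, 0 DREAM genes and 1 relative. At a fold change over 1.5 and BH of at most 0.05, 1 of the 10 genes was called lower (Zmat3), and 2 other targets were called higher and 3 lower. At an assumed coefficient of variation of 0.2 in edgeR, 0 of the 10 genes were called higher, 0 other targets lower, 1 regulator and 0 DREAM genes. At 0.4 there were 0 calls in the 10 genes, other targets, regulators, DREAM genes, ATF4 targets and relatives.

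Over all genes, 635 were called higher and 979 lower. With 1 added to FPKM there were 391 and 399, at a log2 ratio of 1 there were 408 and 476, at the coefficient of 0.2 there were 390 and 423, and at 0.4 there were 65 and 8. TMM scaling gave 670 and 880 and subtraction of the length trend 624 and 733. With at least 20 reads required, Eda2r had no value. No paired analysis was possible because NT and IL-4 were 1 library each. Depth limits Eda2r and Phlda3 most, whose intervals span 0 widely.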
